A study of Mus musculus with 16 samples.

Results

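The transcription factors Bcl6, Prdm1 (which encodes Blimp-1), Lef1, Tox, Tox2 and Ascl2 were followed across 16 Affymetrix arrays of mouse CD4+ T cells, in 2 genotypes and 4 cytokine conditions. They were chosen by name, as every probe set to which the platform annotation gives exactly 1 of 7 gene symbols. Of these 7 genes 6 had such a probe set, 13 probe sets in all, out of 18193 genes so named. Tcf7, which encodes TCF1, was not analysed here. All 6 genes passed the filter on low values used for testing, log2 6 on at least 2 arrays, which 13007 genes passed.

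Naive CD4+ CD44- CD62L+ T cells were sorted and activated for 3 days with anti-CD3 and anti-CD28. STAT3-deficient cells (CD4 Cre; STAT3floxed) were set beside WT cells, each kept with both cytokines, with IL-6 alone, with TGFb alone or in medium. IL-6 was used at 10 ug/ml and TGFb at 2.5 ug/ml, as labelled. The Cre is under CD4 control, and the WT cells are labelled with the floxed alleles and no Cre. Each of the 8 groups held 2 arrays, replicates 1 and 2. The labels do not name their animals or cultures, but sex-linked genes differed between replicates 1 and 2 in every group (Xist at log2 11.91 to 13.21 against 6.64 to 7.6), so the 2 arrays of a group do not share an animal. The p-values rest on the spread of these pairs.

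BCL6 and Blimp-1 are transcriptional repressors that antagonise each other. In CD4+ T cells BCL6 is needed for the follicular helper fate, in which cells help B cells in follicles, whereas Blimp-1 restrains that fate and favours effector functions such as IL-10 production. LEF1 and TCF1 are DNA-binding partners of beta-catenin that keep naive and memory features and act ahead of BCL6 in follicular helper cells. TOX and TOX2 are high mobility group factors, TOX being needed for CD4+ lineage development in the thymus and TOX2 linked to follicular helper cells, and ASCL2 is a basic helix-loop-helix factor that can switch on the follicle-homing receptor CXCR5. IL-6 signals through STAT3, and TGFb through SMAD factors.

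Promoter windows are shown for the antagonist pair, Prdm1 and Bcl6. They come from RefSeq (GRCm38.p6), run from 250 bases before to 50 bases after an annotated start, and are written 5′ to 3′ on the gene's strand. Capitals mark each match to the STAT motif TTCNNNGAA, which reads the same on both strands. The windows are Prdm1 at chr10:44458699-44458998 (minus strand), and Bcl6 at chr16:23988803-23989102 and chr16:23981234-23981533 (both minus strand), the first upstream of the second.
Prdm1: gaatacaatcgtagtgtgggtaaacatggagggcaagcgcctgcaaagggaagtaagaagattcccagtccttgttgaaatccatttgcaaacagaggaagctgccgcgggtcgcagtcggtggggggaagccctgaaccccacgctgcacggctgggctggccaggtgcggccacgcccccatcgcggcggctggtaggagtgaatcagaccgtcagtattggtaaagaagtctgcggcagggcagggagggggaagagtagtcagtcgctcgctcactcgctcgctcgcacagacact
Bcl6 upstream start: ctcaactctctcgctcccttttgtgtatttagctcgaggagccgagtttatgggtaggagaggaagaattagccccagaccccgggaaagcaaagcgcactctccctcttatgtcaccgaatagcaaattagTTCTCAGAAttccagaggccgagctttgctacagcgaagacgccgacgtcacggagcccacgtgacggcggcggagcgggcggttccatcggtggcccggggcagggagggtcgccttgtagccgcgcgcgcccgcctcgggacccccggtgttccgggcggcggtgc
Bcl6 downstream start: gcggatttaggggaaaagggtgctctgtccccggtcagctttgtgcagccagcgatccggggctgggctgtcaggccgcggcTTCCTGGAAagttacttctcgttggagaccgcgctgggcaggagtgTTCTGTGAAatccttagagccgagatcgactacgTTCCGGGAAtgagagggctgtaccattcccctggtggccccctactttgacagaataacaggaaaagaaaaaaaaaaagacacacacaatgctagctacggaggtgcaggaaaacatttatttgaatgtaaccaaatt
The upstream Bcl6 window held 1 STAT match and the downstream one 3, and the Prdm1 window held none. Of 32851 such windows 8.3% held at least 1 match and 0.0335% held 3 or more. A shorter motif bound by SMAD factors, CAGAC searched on both strands, was found in the Prdm1 window and in the upstream Bcl6 window, and in 49.6% of all windows. The Blimp-1 motif AGNGAAAG, searched on both strands, was in none of the 13 windows of the measured factors and in 8.63% of all windows. The table held 5 windows for Tox2, 4 for Lef1 and 1 for Ascl2. Matches are a description of these letters, and none was read as a bound site.

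Stat3 was read first, to check the labels. Its brightest probe set (1460700_at) read log2 8.40 to 10.46 on the 8 STAT3-deficient arrays and 10.22 to 12.18 on the 8 WT arrays. In each condition both STAT3-deficient arrays lay below both WT arrays. The Stat3 sets 1426587_a_at and 1424272_at parted the genotypes in the same way. On 1459961_a_at the genotypes overlapped in medium, under TGFb and under both cytokines. 1 STAT3-deficient array stands out in another gene, the Th17 cytokine Il17a. The array labelled TGFb replicate 1 read it at log2 9.55, whereas the other 7 STAT3-deficient arrays read it at 6.04 to 6.51. The WT arrays given both cytokines read it at 10.16 and 11.58. STAT3-deficient IL-6 with TGFb replicate 1, at 6.29, lay near its own replicate 2 at 6.51, so Il17a does not set it apart. It was still left out together with TGFb replicate 1, and the 2 are called the doubted arrays. Of the 2, only IL-6 with TGFb replicate 1 enters the means compared with IL-6 present. A call lost there without both arrays does not by itself point to TGFb replicate 1. Calls and counts of comparisons that hold these 2 arrays are given with and without them. So are the uncalled differences printed here that moved by over 1.5 times. Foxp3 read 4.81 on WT TGFb replicate 1 and 9.99 on replicate 2, against 7.96 and 9.98 in STAT3-deficient cells given TGFb. With both cytokines the WT arrays read it at 4.81 and 7.90. These WT arrays were not counted among the doubted arrays. The T cell markers measured (9 of 11, Cd3e and Cd4 among them) lay at log2 9.64 to 13.55 on all arrays. All 11 B cell and plasma cell markers measured and both CD8 T cell markers stayed under log2 8 throughout. These are bulk samples, in which fewer cells of a type and less RNA per cell cannot be told apart.

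**Figure D1:**
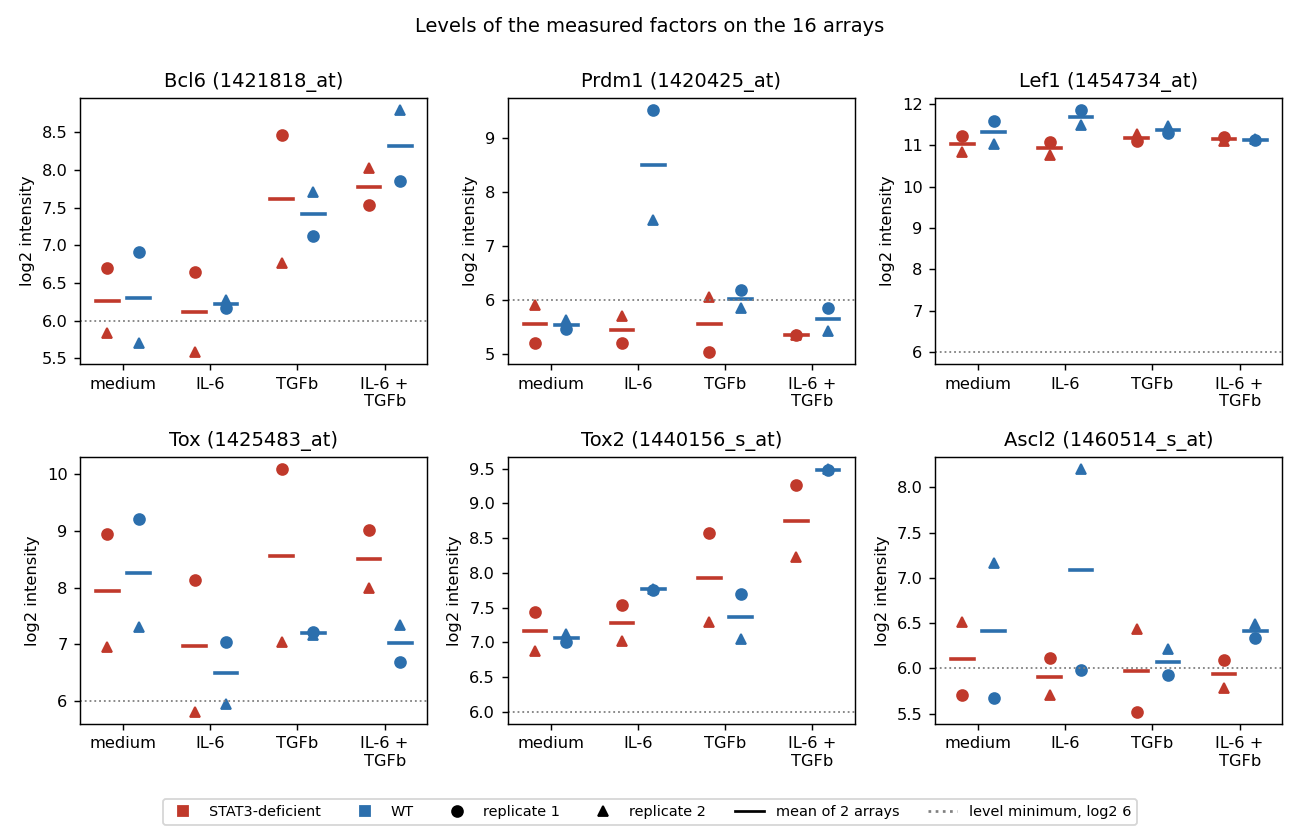
Log2 intensity (y axis) of the brightest probe set of each factor by cytokine condition (x axis), STAT3-deficient in red left of WT in blue. Circles are replicate 1, triangles replicate 2, bars the mean of 2 arrays and the dotted line the level minimum. Prdm1 stands above log2 7 on the WT IL-6 arrays alone, and Bcl6 and Tox2 are highest in WT cells given IL-6 with TGFb.

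Prdm1 was high in a single group, WT cells given IL-6, and STAT3-deficient cells given IL-6 stayed at the level of cells in medium. Under IL-6 it read log2 5.21 and 5.70 in STAT3-deficient cells, against 9.53 and 7.48 in WT cells. Neither array of one genotype came near the other, and the WT replicates themselves lay far apart. The difference was -3.05 (log2, SE 0.55), an 8.3-fold lower intensity in STAT3-deficient cells (adjusted p = 0.0212, limma with Benjamini-Hochberg adjustment over all genes tested). Prdm1 was the only one of the 6 factors called between genotypes under IL-6, where 3.29% of all genes were called. Within replicate 1 the difference was -4.32 and within replicate 2 it was -1.78. Without WT IL-6 replicate 1 it was -2.03 (limma adjusted p = 0.0493), and Prdm1 no longer passed when either STAT3-deficient array of this condition was left out (0.113 for replicate 1, 0.0599 for replicate 2), when arrays were weighted by quality (0.0644) or when the fit held the 4 compared arrays alone (0.113).

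In the other conditions Prdm1 stayed low in both genotypes. Under IL-6 with TGFb it read 5.36 on both STAT3-deficient arrays, against 5.86 and 5.43 in WT cells. Under TGFb it read 5.04 and 6.07 in STAT3-deficient cells, against 6.19 and 5.86 in WT cells, and in medium 5.21 and 5.91 in STAT3-deficient cells, against 5.46 and 5.64 in WT cells. These arrays lie between log2 5.04 and 6.19, so the size of any Prdm1 fold depends on the background, and Prdm1 reached log2 6 on 4 arrays, 2 of them WT IL-6 and 2 with TGFb alone (6.19 in WT and 6.07 in STAT3-deficient cells). Its genotype differences there, -0.28, -0.47 and 0.01, were not called, and the one under TGFb was 0.04 without the 2 doubted arrays. Averaged over both conditions with IL-6 the genotype difference was -1.67 (SE 0.39, limma adjusted p = 0.0254; 7.76% of all genes called), which without the 2 doubted arrays had the same size and an adjusted p of 0.0689.

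Prdm1 was lower in WT cells given IL-6 with TGFb than in those given IL-6 alone. The WT arrays with IL-6 and TGFb (5.86 and 5.43) lay below both WT IL-6 arrays (9.53 and 7.48), a change of -2.87 (SE 0.55, limma adjusted p = 0.0337; 0.953% of all genes called). This call was lost when any one of 13 of the 16 arrays was left out, with adjusted p-values up to 0.314. The change was -1.84 without WT IL-6 replicate 1 (limma adjusted p = 0.162) and -3.89 without WT IL-6 replicate 2 (0.00169), the remaining array being taken to vary like the other groups. In STAT3-deficient cells the same comparison gave -0.10. IL-6 against medium gave 2.96 in WT cells (SE 0.55), with a limma adjusted p of 0.0592, and of 0.0364 with the replicate number as a block (0.284% and 1.68% of all genes called); without STAT3-deficient TGFb replicate 1 the adjusted p was 0.0452. In STAT3-deficient cells IL-6 gave -0.10. The difference between genotypes in this response was -3.06 (SE 0.77) and did not pass (limma adjusted p = 0.387; 0.0231% of all genes called). It was -2.04 without WT IL-6 replicate 1 (limma adjusted p = 0.336) and -4.08 without WT IL-6 replicate 2 (0.0129), under the same assumption. A comparison added after the values were seen, the WT response to IL-6 with TGFb present minus that without TGFb, gave -3.34 (SE 0.77, limma adjusted p = 0.511; 0.0154% of all genes called). It was -2.31 without WT IL-6 replicate 1 (limma adjusted p = 0.501) and -4.36 without replicate 2 (0.0114).

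Markers of other cells were set beside the Prdm1 result, since plasma cells and NK cells can carry it. The summed intensity of the 11 B cell and plasma cell markers was 700 to 752 in STAT3-deficient cells and 598 to 667 in WT cells under IL-6. Of these 11, Jchain read log2 4.32 to 5.09 and Cd79a 5.04 to 5.86 on all arrays. The plasma cell marker Sdc1 ran more widely, from 5.75 to 7.75, as did Blk (5.58 to 7.56) and Ms4a1 (5.43 to 7.4). The part of these markers in the Prdm1 result was not tested. The sum of the 6 NK cell markers measured was 2993 to 3994 in STAT3-deficient cells and 661 to 1307 in WT cells under IL-6. Klrd1, Eomes and Nkg7, which activated T cells also express, were the only ones of these above log2 8, and their part in the result was not tested.

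Bcl6 was higher with TGFb, and no change with IL-6 or between genotypes was called. Under IL-6 with TGFb it read 7.53 and 8.02 in STAT3-deficient cells, against 7.85 and 8.80 in WT cells. Under TGFb it read 8.47 and 6.77 in STAT3-deficient cells, against 7.12 and 7.71 in WT cells. Under IL-6 it read 6.64 and 5.58 in STAT3-deficient cells, against 6.17 and 6.27 in WT cells. In medium it read 6.70 and 5.83 in STAT3-deficient cells, against 6.91 and 5.70 in WT cells. Genotypes overlapped in every condition, and the arrays with TGFb lay above nearly all of those without it. The 8 arrays with TGFb had a lowest value of 6.77, a median of 7.78 and a highest of 8.80, whereas the 8 without it had 5.58, 6.22 and 6.91.

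Over both genotypes TGFb raised Bcl6 by 1.56 (log2, SE 0.30, 2.94-fold, limma adjusted p = 0.00977), in a comparison that called 9.25% of all genes. The change was 1.14 within replicate 1 and 1.98 within replicate 2, and 1.40 (adjusted p = 0.0252) without the 2 doubted arrays. Leaving out any one of the 16 arrays kept the call, with changes of 1.34 to 1.77. IL-6 against medium gave -0.15 in STAT3-deficient cells and -0.09 in WT cells. IL-6 with TGFb against medium gave 1.51 in STAT3-deficient cells and 2.02 in WT cells, with limma adjusted p-values of 0.771 and 0.108. The genotype differences of -0.55, -0.10, 0.20 and -0.04 under both cytokines, IL-6 alone, TGFb alone and medium were not called; without the 2 doubted arrays those under both cytokines and under TGFb were -0.30 and -0.64. The second Bcl6 probe set (1450381_a_at) stayed at log2 4.70 to 5.67 on all arrays and was not tested; with the mean of both probe sets the TGFb change was 0.88.

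**Figure D2:**
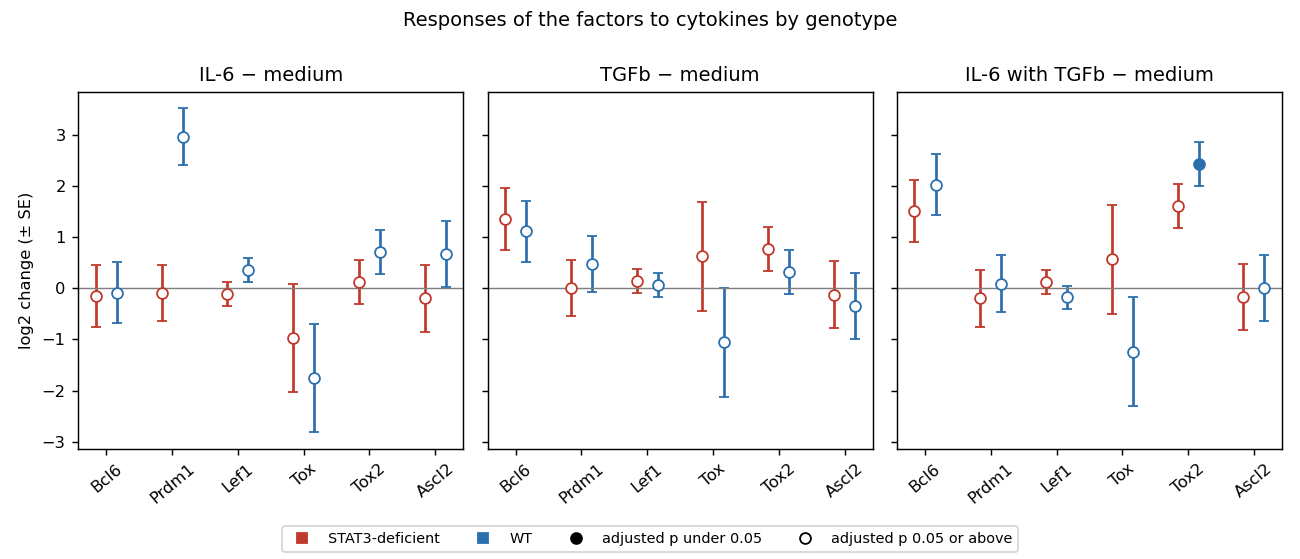
Log2 change against medium with its standard error (y axis) for each factor (x axis) under IL-6, TGFb and IL-6 with TGFb, STAT3-deficient in red left of WT in blue. Filled points have an adjusted p under 0.05. Prdm1 in WT cells given IL-6 (2.96) and Tox2 in WT cells given IL-6 with TGFb (2.43) have the 2 largest changes, and Bcl6 lies above 0 in both genotypes wherever TGFb was given.

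Tox2 was highest where IL-6 and TGFb were combined. Under IL-6 with TGFb it read 9.27 and 8.23 in STAT3-deficient cells, against 9.48 and 9.49 in WT cells. Under IL-6 it read 7.53 and 7.02 in STAT3-deficient cells, against 7.75 and 7.77 in WT cells. Both WT arrays lay above both STAT3-deficient arrays in these conditions. Under TGFb it read 8.57 and 7.29 in STAT3-deficient cells, against 7.69 and 7.04 in WT cells. In medium it read 7.44 and 6.87 in STAT3-deficient cells, against 7 and 7.12 in WT cells. There the genotypes overlapped. The Tox2 genotype differences of -0.73 under IL-6 with TGFb (-1.25 without the 2 doubted arrays) and -0.48 under IL-6 were not called. With 2 arrays on each side, both arrays of 1 genotype can easily lie above both of the other by chance, for any factor here. The share of all genes that did so was not counted.

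IL-6 with TGFb raised Tox2 over medium in WT cells by 2.43 (SE 0.43, 5.37-fold, limma adjusted p = 0.0124). It was the only one of the 6 factors called in that comparison, which called 3% of all genes. The call was lost without either WT array given both cytokines (adjusted p = 0.0989 and 0.0979, the remaining array being taken to vary like the other groups) and without WT medium replicate 1 (0.11). The same comparison in STAT3-deficient cells gave 1.60 (SE 0.43, limma adjusted p = 0.346), and 1.08 without the 2 doubted arrays. The difference between genotypes in this response was -0.83, and -1.35 without the doubted arrays, and was not called (0.131% of all genes called). Adding IL-6 to TGFb gave 0.82 in STAT3-deficient cells and 2.12 in WT cells, the WT change having a limma adjusted p of 0.0645 and of 0.0118 with the replicate block (0.507% and 1.08% of all genes called). Adding TGFb to IL-6 gave 1.48 in STAT3-deficient cells (0.96 without the doubted arrays) and 1.72 in WT cells, with a limma adjusted p of 0.116 in WT cells and of 0.0222 with the replicate block, in which 1.87% of all genes were called. Without the 2 doubted arrays both WT changes passed (adjusted p = 0.0122 and 0.0232).

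Over both genotypes TGFb raised Tox2 by 1.07 (SE 0.22, 2.1-fold, limma adjusted p = 0.0115). The 8 arrays with TGFb ran from 7.04 over a median of 8.40 to 9.49, and the 8 without it from 6.87 over 7.28 to 7.77, so that the groups overlapped at their low end. Without the 2 doubted arrays the change was 0.78 (adjusted p = 0.022). Bcl6 and Tox2 were the 2 factors called for TGFb, out of 6, where 9.25% of all genes were called. The Tox2 probe set behind these values (1440156_s_at) carries a suffix that Affymetrix gives to sets shared by several transcripts. The other set (1457757_at) stayed at log2 4.64 to 5.17 and was not tested; with the mean of both, the change under IL-6 with TGFb in WT cells was 1.23 and that for TGFb 0.52.

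Lef1 stayed high in every group, between log2 10.77 and 11.86 on all 16 arrays. Under IL-6 it read 11.08 and 10.77 in STAT3-deficient cells, against 11.86 and 11.49 in WT cells. Both STAT3-deficient arrays lay below both WT arrays. The difference was -0.75 (SE 0.23), with a limma adjusted p of 0.1 and of 0.0426 with the replicate block, in which 11.5% of all genes were called. It was -0.78 within replicate 1 and -0.72 within replicate 2. The second probe set (1421299_a_at) read 9.15 and 7.60 in STAT3-deficient cells, against 10.26 and 9.21 in WT cells. There the genotypes did not overlap either, with a difference of -1.36 (SE 0.54, limma adjusted p = 0.199, and 0.0278 with the block); averaged over both conditions with IL-6 it was -0.76 (0.249, and 0.0472 with the block).

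Elsewhere Lef1 differed little. Under IL-6 with TGFb it read 11.21 and 11.11 in STAT3-deficient cells, against 11.13 and 11.15 in WT cells. Under TGFb it read 11.10 and 11.27 in STAT3-deficient cells, against 11.30 and 11.46 in WT cells. In medium it read 11.23 and 10.85 in STAT3-deficient cells, against 11.60 and 11.04 in WT cells. Under both cytokines and in medium the genotypes overlapped, and under TGFb the WT arrays were just above. TGFb over both genotypes changed Lef1 by -0.02 (SE 0.12). IL-6 against medium gave -0.12 in STAT3-deficient cells and 0.35 in WT cells, neither called.

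On all 3 Tox probe sets the mean over the conditions with IL-6 was higher in STAT3-deficient cells, by 0.98, 1.16 and 1.00 (log2), and the difference was called on 1442039_at alone. The brightest set (1425483_at) read 9.02 and 7.99 under IL-6 with TGFb in STAT3-deficient cells, against 6.69 and 7.35 in WT cells. Under IL-6 it read 8.14 and 5.81 in STAT3-deficient cells, against 7.04 and 5.95 in WT cells. Under TGFb it read 10.09 and 7.04 in STAT3-deficient cells, against 7.22 and 7.17 in WT cells, and in medium 8.95 and 6.95 in STAT3-deficient cells, against 9.21 and 7.30 in WT cells. Only under both cytokines did the genotypes part, and the value of 10.09 belongs to a doubted array. The genotype difference averaged over both conditions with IL-6 was 0.98 (SE 0.75, limma adjusted p = 0.42), 1.72 within replicate 1, 0.25 within replicate 2 and 0.72 without the 2 doubted arrays.

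On 1442039_at the STAT3-deficient arrays read 7.19 and 8.01 under IL-6 with TGFb and 7.07 and 6.73 under IL-6. The WT arrays read 6.21 and 6.92 under IL-6 with TGFb and 5.78 and 6.09 under IL-6. In each of the 2 conditions both STAT3-deficient arrays lay above both WT arrays. The difference averaged over them was 1.00 (SE 0.26, adjusted p = 0.0487 in limma over 22711 probe sets, of which 6.3% were called), 1.13 within replicate 1 and 0.87 within replicate 2. It sits at the threshold: leaving out 1 array at a time gave 0.79 to 1.20, with the call lost for 12 of 16 arrays (adjusted p up to 0.187), and without the 2 doubted arrays it was 1.20 (adjusted p = 0.0509). On 1425484_at the STAT3-deficient arrays read 7.21 and 8.21 under IL-6 with TGFb and 7.19 and 6.55 under IL-6. The WT arrays read 5.86 and 7.09 under IL-6 with TGFb and 5.55 and 6.04 under IL-6, so that the genotypes did not overlap in either condition here too. The same difference was 1.16 (SE 0.36), with a limma adjusted p of 0.0831 and of 0.0488 with the replicate block, in which 16.8% of probe sets were called. The gap on these 2 dimmer sets was not confined to the conditions with IL-6. Under TGFb alone 1442039_at read 7.75 and 7.27 in STAT3-deficient cells, against 6.51 and 6.94 in WT cells. There 1425484_at read 7.95 and 7.16 in STAT3-deficient cells, against 6.43 and 7.08 in WT cells. The values of 7.75 and 7.95 belong to a doubted array. In medium the genotypes overlapped on both sets. In WT cells IL-6 against medium gave -1.76, -1.83 and -1.54 on the 3 probe sets, none of them called.

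**Figure D3:**
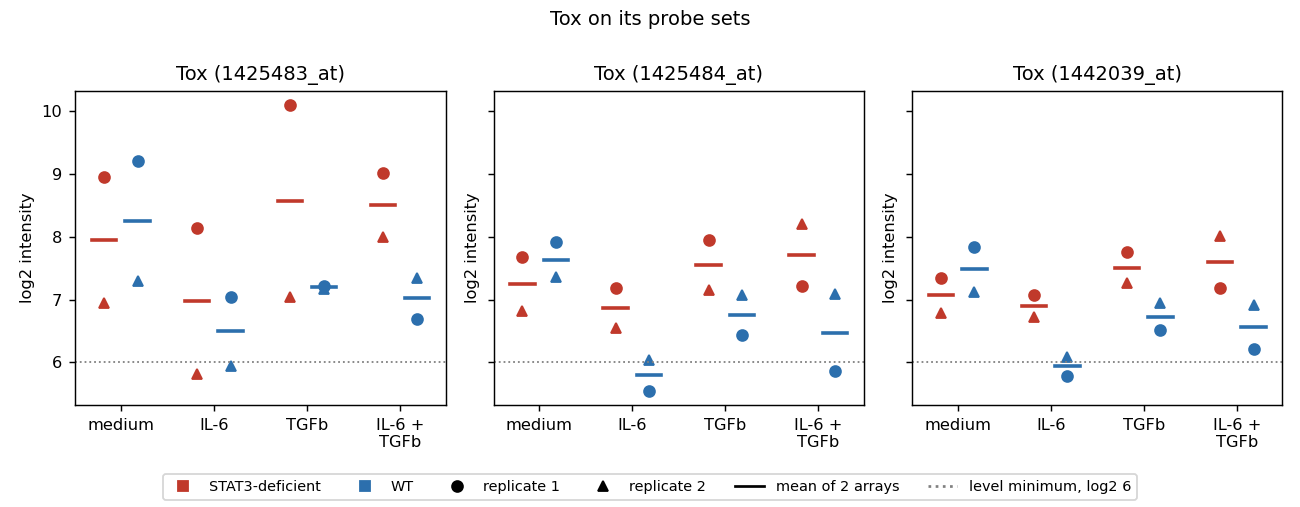
Log2 intensity (y axis) of the 3 Tox probe sets by cytokine condition (x axis), STAT3-deficient in red left of WT in blue, with circles for replicate 1, triangles for replicate 2 and bars for means of 2 arrays. Under IL-6 and under IL-6 with TGFb the STAT3-deficient arrays of 1442039_at (6.73 to 8.01) stand above the WT arrays of the same condition (5.78 to 6.92), while the arrays of a group spread widely on 1425483_at. Under TGFb alone the STAT3-deficient arrays of 1442039_at (7.27 and 7.75) also stand above the WT arrays (6.51 and 6.94).

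Ascl2 stayed near background and was not called in any comparison. Its brightest probe set (1460514_s_at) read 6.11 and 5.70 under IL-6 in STAT3-deficient cells, against 5.98 and 8.20 in WT cells. In medium it read 5.70 and 6.51 in STAT3-deficient cells, against 5.67 and 7.16 in WT cells. In both conditions it was the WT replicate 2 array that stood out. The genotype difference under IL-6 was 0.13 within replicate 1 and -2.50 within replicate 2, and -1.18 over both (SE 0.65, limma adjusted p = 0.31). On the remaining 8 arrays it lay between 5.52 and 6.49. The other probe sets, 1422396_s_at and 1432018_at, were under log2 6 on 15 arrays each and were highest on the same WT IL-6 replicate 2 array, at 6.74 and 6.44.

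The order of the group means differed by factor. For Prdm1 WT IL-6 came first (8.51 ± 1.45, SD, n = 2), clear of all other groups, whose neighbours in the order overlapped. For Bcl6 the 4 groups with TGFb came first, from 8.32 ± 0.67 in WT IL-6 with TGFb to 7.41 ± 0.42 in WT TGFb, without overlap between that group and WT medium next to it (6.30 ± 0.85). For Tox2 WT IL-6 with TGFb (9.48 ± 0.01) did not overlap STAT3-deficient IL-6 with TGFb next to it (8.75 ± 0.73). For Lef1 WT IL-6 (11.67 ± 0.26) did not overlap WT TGFb next to it (11.38 ± 0.11), but WT medium, after that in the order, reached 11.60 and overlapped it. All neighbours of Tox and of Ascl2 overlapped.

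Between the genotypes in TGFb and in medium none of the 6 factors was called, and neither was any other gene (0% of all genes in both). There 89 and 17 genes had an unadjusted p under 0.05 in limma. The deleted Stat3 itself, at -2.52 under TGFb and -2.05 in medium, was not called either. These comparisons therefore cannot tell the absence of a genotype difference from one that was missed. Under IL-6 with TGFb 0 of the 6 were called, against 1.19% of all genes. Stat3 was not called there either (-2.72, limma adjusted p = 0.05, and 0.0052 with the replicate block). A genotype difference in a factor could therefore have been missed in that condition too. In STAT3-deficient cells none of the 6 was called between conditions, against 0.138% of all genes for IL-6 with TGFb over medium, 0.354% for TGFb over medium and 0% for IL-6 over medium. TGFb added to IL-6 called 0.254% of all genes in these cells, and IL-6 added to TGFb 0%. None of the 6 was called for the genotype difference in the response to TGFb (0% of all genes) or to IL-6 averaged over TGFb (0.354%). In WT cells TGFb against medium called none of the 6 and 0.223% of all genes.

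The levels of Tox2 and Bcl6 correlated at 0.74 (Pearson, over 16 arrays), those of Lef1 and Prdm1 at 0.66, those of Prdm1 and Bcl6 at -0.37 and those of Ascl2 and Tox at -0.55. These are descriptions over arrays that share groups and replicate numbers. Among other genes, the closest patterns over the 16 arrays were Card6, Lpar6 and Aftph for Bcl6 (0.944, 0.941 and 0.922) and Hhex, Adam8 and Nck1 for Prdm1 (0.925, 0.91 and 0.897). For Tox2 they were Fst, Pou6f1 and Tnfrsf14 (0.929, 0.891 and 0.882), and for Lef1 Psd4, Cflar and Tubb5 (0.854, 0.823 and 0.82). For Tox they were Slc29a1, Wnt10b and Cnih3 (0.942, 0.916 and 0.91), and for Ascl2 Tgm1, Dpf1 and Hs3st6 (0.931, 0.922 and 0.896).

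The programmes that these factors serve were read from 6 lists of genes. Between genotypes a rise or fall below means a higher or lower level in STAT3-deficient than in WT cells, not a response to IL-6. Of 24 follicular helper genes tested, 7 were lower and 0 higher in STAT3-deficient than in WT cells with IL-6 present. There 7.76% of all genes were called, and the median difference was -0.70 against 0 over all genes. The deleted gene Stat3 is one of the 7. Of the other 23 genes 6 were lower, with a median of -0.68. Among the called genes the largest changes were in Il21 (-7.16, SE 0.37), the cytokine by which these cells help B cells, Maf (-3.73, SE 0.34), a factor that drives Il21, Stat3 itself (-2.91) and the AP-1 factor Batf (-1.67), all called in limma. Il21 read log2 4.92 under IL-6 in STAT3-deficient cells and 11.97 in WT cells (means of 2 arrays). When the 2 doubted arrays were left out, 3 fell, where 4.04% of all genes were called: Il21 (-7.16), Maf (-3.72) and Stat3 (-2.77), with Batf at -1.67 but no longer called. Cxcr5, the follicle-homing receptor, was not called at -1.16, a mean over 2 unlike conditions. Under IL-6 with TGFb it read 5.49 and 6.17 in STAT3-deficient cells, against 7.67 and 8.19 in WT cells. Under IL-6 it read 5 and 6.02 in STAT3-deficient cells, against 5.39 and 6.09 in WT cells.

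**Figure D4:**
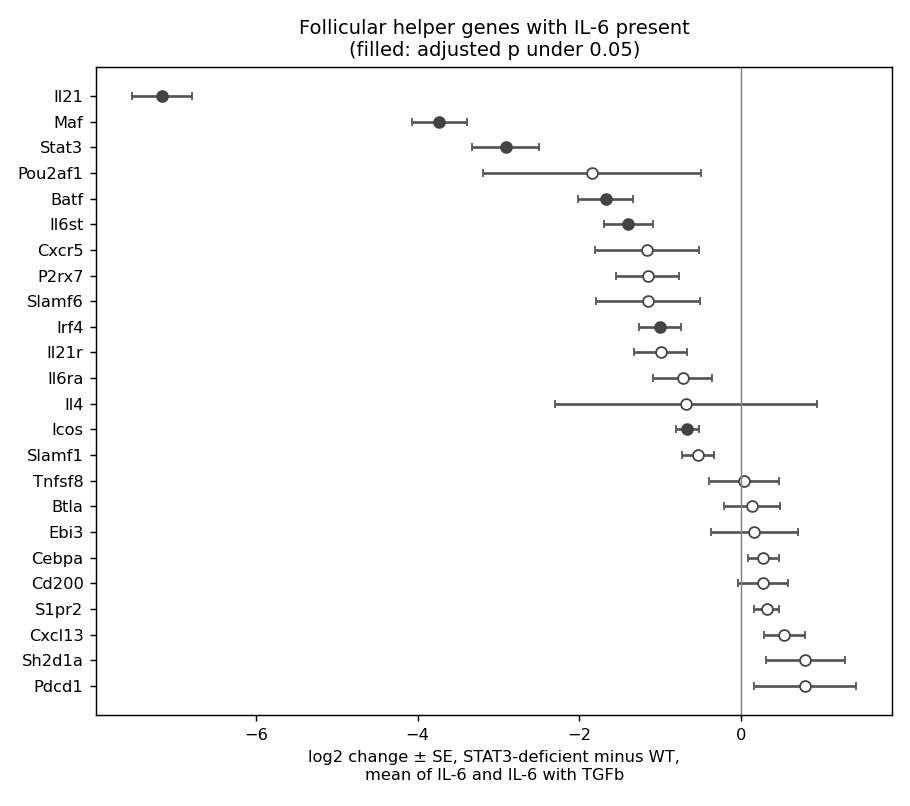
Log2 change with its standard error (x axis), STAT3-deficient minus WT averaged over IL-6 and IL-6 with TGFb, of the 24 follicular helper genes tested (y axis). Filled points have an adjusted p under 0.05; these are 7 genes, the deleted Stat3 among them, all below 0 and led by Il21 (-7.16) and Maf (-3.73).

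TGFb moved the same list both ways over the 2 genotypes, with 2 genes rising and 5 falling, where 9.25% of all genes were called. Maf rose by 4.2 (SE 0.24, limma adjusted p = 2.25e-06), whereas Cd200 fell by 1.77, Tnfsf8 (CD30 ligand) fell by 1.75 and Btla, an inhibitory receptor, fell by 1.42. Without the 2 doubted arrays, where 6.4% of all genes were called, 2 rose and 5 fell as well, with Maf at 4.06 and with Stat3 in place of Il6st among the rises. In WT cells IL-6 with TGFb against medium raised 3 of the 24 and lowered 1, where 3% of all genes were called, with Maf at 7.24 and Il21 at 6.84.

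BCL6 represses through corepressors that carry histone deacetylases. Of 15 corepressor and partner genes of BCL6, 2 were lower in STAT3-deficient than in WT cells with IL-6 present. These were the histone deacetylases Hdac4 (-1) and Hdac5 (-0.92), where 7.76% of all genes were called. TGFb raised 2 of the 15, Tbl1xr1 (0.61) and Mta3 (0.47), where 9.25% of all genes were called. With the 2 doubted arrays left out, Hdac4 was still called between genotypes (-0.93; 4.04% of all genes called) and Tbl1xr1 for TGFb (0.60; 6.4%). The list of 21 genes linked to Blimp-1 mixes its partners and effector-programme genes with repressed ones such as Il2. Counts over it therefore give no direction for the programme as a whole. Of these 21 genes, 3 were lower in STAT3-deficient cells with IL-6 present, against the same 7.76%. These were Il10, an immunosuppressive cytokine (-3.01, SE 0.67), Id2, an inhibitor of E proteins (-1.78, SE 0.28), and the activation factor Irf4 (-1). Without the 2 doubted arrays 1 fell, Id2 (-1.91). TGFb lowered 3 of the 21, where 9.25% of all genes were called, Il2 (-2.89), which Blimp-1 is known to repress, Ezh2 (-0.73) and Prmt5 (-0.49), and Il2 alone without the 2 doubted arrays (-3.04).

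Of 21 genes of the TCF1 and LEF1 naive and memory programme, 2 were higher and 2 lower in STAT3-deficient cells with IL-6 present. There 7.76% of all genes were called. With the replicate block 4 were higher and 4 lower, where 17.6% were called. Dapl1 was higher by 2.88 (SE 0.40) and Myb by 1.5, whereas Igfbp4 was lower by 1.97 and Foxo1 by 0.77, all called in limma. Dapl1 read 9.91 under IL-6 in STAT3-deficient cells and 6.46 in WT cells. In medium it read 10.48 and 10.06 in STAT3-deficient cells, against 10.13 and 10.50 in WT cells, so it was the WT level under IL-6 that lay apart. TGFb, with 9.25% of all genes called, raised 4 of the 21 and lowered 2, with Igfbp4 at 1.66, the quiescence factor Klf2 at 1.59, Dapl1 at -1.67 and the chromatin organiser Satb1 at -1.26, and a median of 0.34 against -0.01 over all genes. Without the 2 doubted arrays Dapl1 rose (3.02) and Igfbp4 fell (-2.06) between genotypes, where 4.04% of all genes were called, and 2 rose and 1 fell for TGFb, where 6.4% were called.

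Of 21 genes of the TCF/LEF family and its Wnt partners, 1 was lower in STAT3-deficient than in WT cells with IL-6 present. This was Nlk (-0.71), a kinase that phosphorylates LEF1, against 7.76% of all genes called. Of the 21, 2 fell without the 2 doubted arrays (4.04% of all genes called) and 3 with the replicate block (17.6%). TGFb, with 9.25% of all genes called, raised 2, the corepressors Tle1 (0.82) and Tle4 (0.55), which TCF and LEF factors recruit. It raised 1 without the 2 doubted arrays (6.4% of all genes called) and 4 with the replicate block (16.3%). Of 13 genes of the TOX family or linked to TOX, 1 was higher and 1 lower in STAT3-deficient than in WT cells with IL-6 present. These were Nr4a3, an activation-induced nuclear receptor (2.41, SE 0.35), and Nfatc2 (-1), where 7.76% of all genes were called. Leaving out the 2 doubted arrays, 2 rose and 0 fell (4.04% of all genes called), and with the replicate block 3 rose and 1 fell (17.6%). TGFb, with 9.25% of all genes called, raised Entpd1 (CD39, 1.95) and lowered Nr4a2 (-1.18), with 1 rise and no fall without the 2 doubted arrays (6.4%) and 2 rises and 1 fall with the replicate block (16.3%).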

How the data were processed

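The deposited values were linear intensity values of probe sets, 100% of them whole numbers from 6 to 37243, made by the authors with RMA, per the submitters' processing notes; its version is not given in the sources used here. Medians per array lay between 66 and 73, and the number of arrays limits the precision. Log2 was taken with no pseudocount. Of 45101 probe sets, 34945 had 1 gene symbol; a gene was its probe set with the highest mean, and only genes at log2 6 or above on 2 or more arrays were tested. Dimmer probe sets of the factors were tested in a fit over 22711 probe sets. All 16 arrays were fitted in limma 3.58.1 (R 4.3.3) with a mean per group (8 residual and 3.27 prior degrees of freedom), two-sided, adjusted by Benjamini-Hochberg within each comparison and called under 0.05. The fit was tested on simulated data.

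The members and lists were chosen with earlier results of these data known. Named were all members, Stat3, up to 4 called genes of a list by size of change, and the 3 genes most like each member. Jchain, Cd79a, Sdc1, Blk, Ms4a1, Klrd1, Eomes, Nkg7, Il17a, Foxp3 and Cxcr5 were named after their values were seen. Deviations of same-numbered arrays correlated at 0.11 to 0.86 over 28 pairs of groups, so the replicate numbers of the titles pair the samples. They also part arrays by sex-linked genes (Xist 11.91 to 13.21 on replicate 1 and 6.64 to 7.6 on replicate 2). The block with the replicate number, other filters, probe set rules, array weights and left-out arrays were tried as alternatives. The values of the lists and dimmer probe sets without the doubted arrays, and of the follicular helper list without Stat3, were added after seeing the data.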

Additional observations from a re-analysis of the deposited data

How the results depend on the processing

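With the replicate block more of all genes were called as well. For IL-6 over medium in WT cells 1.68% were called in place of 0.284%, and between genotypes under IL-6 11.5% in place of 3.29%. The counts that follow are of calls among the 6 factors, summed over the comparisons of a kind. Between WT conditions there were 2, against 5 with the replicate block, 4 with array weights, 4 without the 2 doubted arrays and 0 to 5 when 1 array was left out. Between genotypes there were 2, against 1 with array weights, with only the arrays compared and without the 2 doubted arrays, and 0 to 3 when 1 array was left out. For TGFb over both genotypes there were 2 under each alternative but 1, with 3 when WT IL-6 replicate 2 was left out (Prdm1 added). In the interactions and in the added comparison of IL-6 with and without TGFb there were 0, rising to 2 and 1 when WT IL-6 replicate 2 was left out. For the dimmer probe sets there was 1, against 4 with the replicate block, 0 with array weights, 0 without the 2 doubted arrays and 0 to 1 when 1 array was left out. The Prdm1 mean over both conditions with IL-6 lost its call without any one of 5 arrays (adjusted p up to 0.102), namely STAT3-deficient IL-6 replicate 1 and all 4 arrays with both cytokines. No member changed sign in a called comparison. Among the 6 factors and their probe sets the replicate block changed no other call than those given. For the follicular helper genes with IL-6 present it gave 9 lower in place of 7, with 17.6% in place of 7.76% of all genes called. Groups of 2 arrays and levels near log2 6 limit Prdm1, Ascl2 and the dim probe sets.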
